A study of Mus musculus with 2 samples.

Results

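The tubulin genes followed here in the erythroid cell line G1E-ER4, an immortalized line from mouse, are the alpha tubulins Tuba1a, Tuba1b, Tuba1c and Tuba4a, the beta tubulins Tubb2a, Tubb4b, Tubb5, Tubb6 and Tubb1, and the gamma tubulin Tubg1. The genes were chosen by name, with earlier results of these data known, and all 10 are among the 43346 Ensembl genes of the deposited tables. The parental G1E cells carry no functional Gata1, and the ER4 derivative carries a GATA1 protein fused to an estrogen receptor domain that responds to estradiol. According to the labels the cells had Gata1 restored and were driven to differentiate with estradiol (E2), at a dose and for a time that the labels leave out. The study consists of 1 group with 2 paired-end RNA-seq libraries, described as biological replicates 2 and 1 and as made from polyadenylated RNA. The libraries hold 51923116 (replicate 2) and 68901065 (replicate 1) estimated counts over Ensembl genes. Both cite one biosample record, so the spread between them may be technical, and with a single group no condition could be compared. In bulk RNA a lower number of cells of a type and less RNA per cell cannot be told apart.

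Microtubules are polymers of alpha and beta tubulin dimers. Vertebrate genomes hold several genes for each subunit, whose proteins are nearly alike along the folded body and differ most in the acidic C-terminal tail that projects from the microtubule surface. Gamma tubulin does not enter the lattice but forms the ring complex from which microtubules grow. In the blood lineages tubulin builds the spindle of dividing progenitors, and in megakaryocytes and platelets a dedicated beta isotype, encoded by Tubb1, builds the marginal band.

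The coding ends show where the isotypes part. At the 5′ end, codons 2 to 4 are given in capitals because the first residues of nascent alpha and beta tubulin are the tag that TTC5 reads when excess free tubulin triggers the decay of tubulin mRNA. These sequences were taken from GENCODE M21 transcripts (GRCm38), 5′ to 3′ on the coding strand.
Tuba1b start: atgCGTGAGTGC
Tuba4a start: atgCGCGAGTGC
Tubb5 start: atgAGGGAAATC
Tubb4b start: atgAGGGAGATC
Tubg1 start: atgCCGAGAGAA
The alpha genes share the codons for arginine, glutamate and cysteine in this window and the beta genes those for arginine, glutamate and isoleucine, whereas Tubg1 carries neither. At the other end, the last 20 codons before the stop codon are shown for Tuba4a and for the beta genes with counts, with the final codon in capitals.
Tuba4a end: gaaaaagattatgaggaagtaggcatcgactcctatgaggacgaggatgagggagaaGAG
Tubb2a end: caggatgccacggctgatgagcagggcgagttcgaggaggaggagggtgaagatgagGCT
Tubb4b end: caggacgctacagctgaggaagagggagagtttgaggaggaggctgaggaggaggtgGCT
Tubb5 end: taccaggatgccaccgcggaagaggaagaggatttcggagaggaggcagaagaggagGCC
Tubb1 end: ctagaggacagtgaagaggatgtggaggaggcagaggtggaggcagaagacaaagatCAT
The tails shown hold 11 or 12 acidic codons among these 20. Tuba4a ends in a glutamate codon, Tubb2a, Tubb4b and Tubb5 in an alanine codon and Tubb1 in a histidine codon.

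In these cells the beta isotypes Tubb4b and Tubb5 and the alpha isotype Tuba1b carried most of the tubulin mRNA. Of the 10 genes, 8 reached 1 TPM (transcript abundance as scaled by the authors for length and depth) in both libraries. Across all 21474 protein-coding genes the share at that level was 39.0%. The other two, Tubb1 and Tubb6, had almost no reads or none. Tubb4b was the highest at 531 ± 92.2 TPM (SD, n = 2), followed by Tuba1b at 295 ± 171 TPM and Tubb5 at 293 ± 161 TPM, and then by Tubg1 at 113 ± 2.07 TPM. The order of the mean levels went on with Tuba4a, Tuba1c, Tubb2a, Tuba1a, Tubb1 and Tubb6. Neighbours in that order overlapped between the libraries for Tuba1b with Tubb5 and for Tuba4a with Tuba1c, and did not overlap for the other pairs of detected genes. The 10 genes together took 0.170% of all TPM in replicate 2 and 0.101% in replicate 1.

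**Figure D1:**
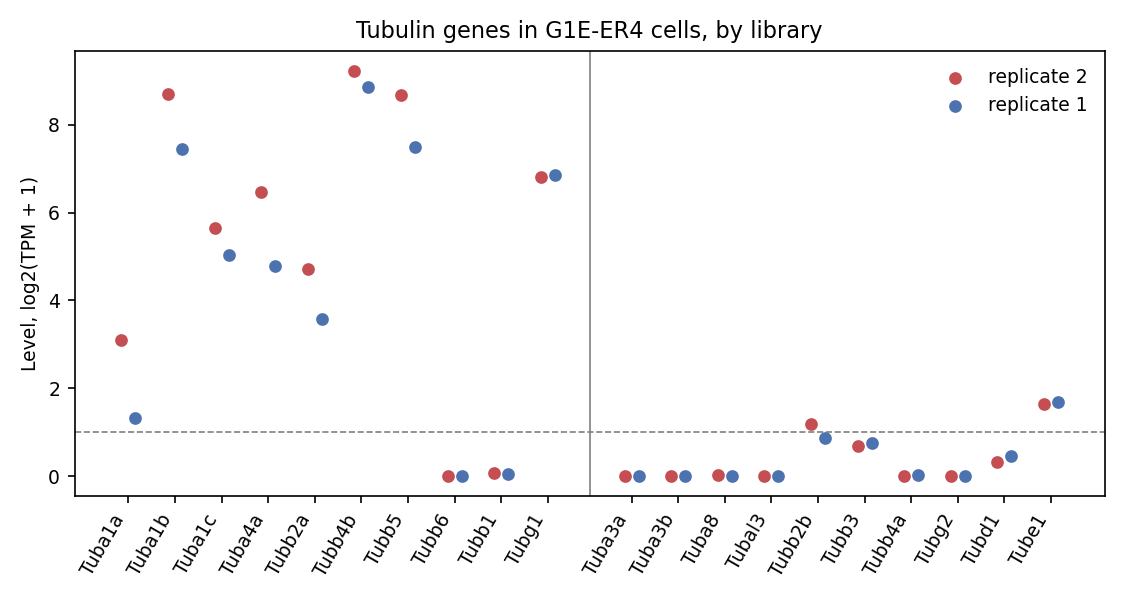
Level of each tubulin gene as log2(TPM + 1), with replicate 2 in red and replicate 1 in blue and the dashed line at 1 TPM. The 10 genes described stand left of the vertical line and the 10 other tubulin genes right of it, where Tube1, at 2.10 and 2.22 TPM, is the only gene above the line in both libraries.

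Among the alpha genes, Tuba1b, the broadly expressed isotype of dividing cells, had 416 TPM in replicate 2, against 175 TPM in replicate 1. Tuba1c, its neighbour in the same cluster, had 49.3 TPM in replicate 2, against 31.9 TPM in replicate 1. Tuba1a, the isotype best known from developing neurons, had 7.55 TPM in replicate 2, against 1.51 TPM in replicate 1. All 3 were higher in replicate 2, and Tuba1b stood above Tuba1c 8.43 times in replicate 2 and 5.47 times in replicate 1. The 3 genes lie within one stretch of chromosome 15 (mm10), with Tuba1b from 98931425 to 98934565 and Tuba1a from 98949837 to 98953703 on the minus strand, and Tuba1c from 99029891 to 99038110 on the plus strand. Tuba4a, an alpha isotype abundant in platelets, lies alone on chromosome 1 (75214228 to 75219865, minus strand). It had 87.1 TPM in replicate 2, against 26.3 TPM in replicate 1, so that it was above Tuba1c in replicate 2 and below it in replicate 1.

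Of the summed alpha TPM, Tuba1b held 74.3% in replicate 2 and 74.5% in replicate 1. Over all transcripts that share hardly moved, although the sum itself was 560 TPM in replicate 2, against 234 TPM in replicate 1. Tuba4a held 15.6% in replicate 2 and 11.2% in replicate 1, Tuba1c 8.81% and 13.6%, and Tuba1a 1.35% and 0.644%. Tuba1a, Tuba1b and Tuba1c together thus made up 84.4% of alpha TPM in replicate 2 and 88.8% in replicate 1. By transcripts that hold the coding sequence from codon 2 to the stop codon, Tuba1b held 84.5% in replicate 2 and 80.5% in replicate 1.

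The Tuba1 genes are close copies, and much of their sequence occurs in more than one gene. Their coding sequences were 97.1 to 98.3% identical, against 84.7 to 85.2% for each of them with Tuba4a. Of the 31-mers (stretches of 31 bases) in the leading transcript, some also occurred in a transcript of another gene. These were 77.0% in Tuba1a, 75.4% in Tuba1b, 63.9% in Tuba1c and 8.60% in Tuba4a. The leading transcript of Tuba4a has only 228 coding bases among 1205, against 1350 to 1356 coding bases in those of the Tuba1 genes. The share of Tuba4a thus describes mostly non-coding sequence. The authors' files give a posterior SD of each estimated count, which holds the uncertainty of assigning reads to similar genes. It was 7.53% of the posterior mean count of Tuba1a in replicate 2 and 7.42% in replicate 1, 1.46% and 1.52% for Tuba1c, and 0.347% and 0.450% for Tuba1b. For Tuba4a and Tubb5 it was 0 in both libraries. In counts, the SD of Tuba1a was 38.5 beside a posterior mean of 511 in replicate 2, and 10.2 beside 138 in replicate 1. The part of read assignment in the difference between the libraries was not tested.

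**Figure D2:**
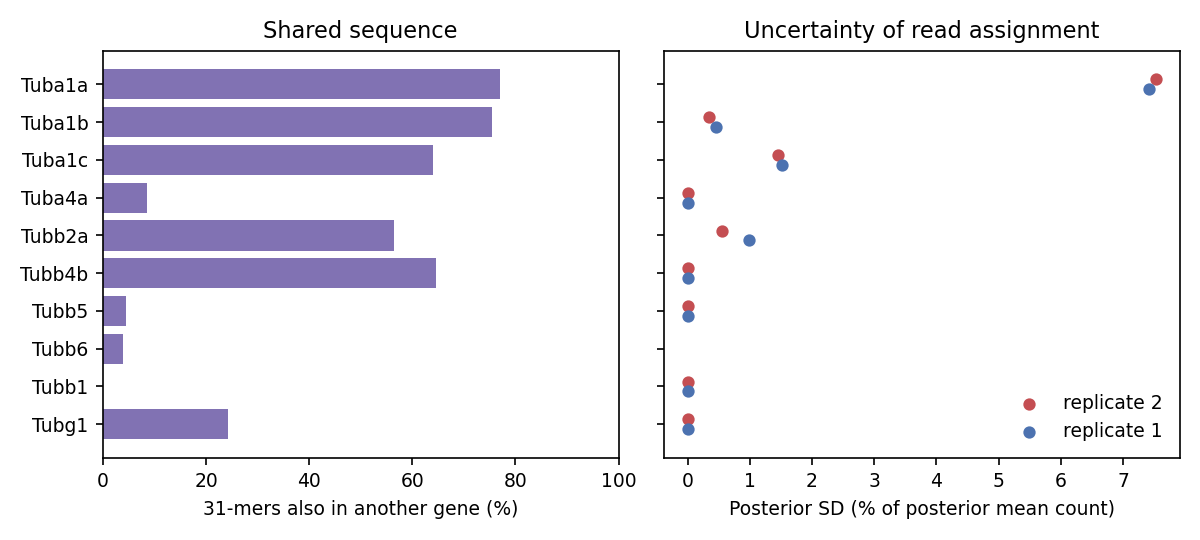
Left, percent of the 31-mers of each gene's leading transcript that also occur in a transcript of another gene. Right, the authors' posterior SD as a percent of the posterior mean count, with replicate 2 in red and replicate 1 in blue; Tubb6 has no counts and no point. Tuba1a stands apart at 7.53 and 7.42%, whereas Tubb4b, with 64.6% of 31-mers shared, lies near 0.

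Processed pseudogenes of the Tuba1 genes also received reads. Among the features counted, 6 such pseudogenes hold at least 10% of the 31-mers of Tuba1a, Tuba1b or Tuba1c, a choice that can miss short ones. Gm17383 stood at 243 TPM in replicate 2, against 153 TPM in replicate 1, from 9770 and 8152 estimated counts, and 82.2% of its 31-mers occur in the 3 genes. It thereby ranked above Tuba1c and Tuba4a, and Tuba1b exceeded it 1.71 times in replicate 2 and 1.14 times in replicate 1. Its posterior SD was 0.810% and 0.689% of the posterior mean count. The other five summed to little beside it, with Gm14150 the next at 8.29 TPM in replicate 2, against 4.03 TPM in replicate 1. The pseudogenes took 24.2% of the counts of the Tuba1 genes and pseudogenes together in replicate 2 and 29.7% in replicate 1. Whether these reads come from the pseudogene or from a parent gene was not tested.

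Among the beta genes, Tubb4b had 596 TPM in replicate 2, against 466 TPM in replicate 1, and Tubb5, the general isotype of proliferating cells, had 406 TPM in replicate 2, against 179 TPM in replicate 1. Tubb4b, a further widely expressed isotype, was above Tubb5 in both libraries, but by 1.47 times in replicate 2 and 2.60 times in replicate 1. Together they held 97.5% of beta TPM in replicate 2 and 98.3% in replicate 1. Tubb4b alone held 58.0% in replicate 2 and 71.0% in replicate 1, and Tubb5 held 39.5% and 27.3%. Tubb2a, an isotype of neurons and many other tissues, had 25.2 TPM in replicate 2, against 11.0 TPM in replicate 1. Tubb5 exceeded Tubb2a by nearly the same factor in both, 16.1 times in replicate 2 and 16.3 times in replicate 1. Tubb4b lies on chromosome 2 (25222160 to 25224702), Tubb5 on chromosome 17 (35833921 to 35838306) and Tubb2a on chromosome 13 (34074274 to 34078007), each on the minus strand.

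Among the beta genes sequence sharing was uneven. Tubb5 shared 4.43% of its 31-mers with other genes. Tubb4b shared 64.6%, and 54.5% of its 31-mers occur in its processed pseudogene Tubb4b-ps1, which held 0.14 TPM in replicate 2, against 0.24 TPM in replicate 1. Tubb2a shared 51.1% with Tubb2b, whose coding sequence is 96.5% identical, and the posterior SD of Tubb2a was 0.546% and 0.980% of its posterior mean count.

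The platelet isotype Tubb1 was at the floor. It had 3 counts in replicate 2 and 2 in replicate 1, or 0.05 and 0.03 TPM, with exact Poisson 95% intervals of 0.0109 to 0.155 TPM and 0.00322 to 0.0962 TPM that cover counting error only. None of its 31-mers occurs in another gene. Tubb1 lies on chromosome 2 (174450695 to 174457882, plus strand). Of 10 megakaryocyte and platelet markers 4 reached 1 TPM in both libraries, namely Nbeal2, Gp1ba, Itga2b and Treml1 at 86.6, 32.9, 23.7 and 2.31 TPM on average, whereas Ppbp had no counts and Vwf had 1 count in all. The list summed to 160 TPM in replicate 2, against 135 TPM in replicate 1, and of its 7 tested genes 5 were called higher in replicate 2 and 0 higher in replicate 1 by the exact binomial test described further on, with a median log2 ratio of 0.47. All 10 erythroid markers reached 1 TPM, with Hba-a1 the highest at 7841 TPM on average. Of these 10, 7 were called higher in replicate 2 and 1 higher in replicate 1, with a median log2 ratio of 0.24. Gata1 stood 1.74 times higher in replicate 2 in scaled counts. Over all tested genes 34.7% were called higher in replicate 2 and 34.4% higher in replicate 1. The part of these markers in the tubulin differences between the libraries was not tested. Tubb6, a widely expressed but usually minor isotype, had no counts in either library. With a floor of 3 counts per library its level lay below 0.0414 TPM in replicate 2 and below 0.0312 TPM in replicate 1.

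Summed over the listed genes, beta tubulin stood at 1028 TPM and alpha tubulin at 560 TPM in replicate 2, and at 656 and 234 TPM in replicate 1. The ratio of beta to alpha was 1.84 in replicate 2 and 2.80 in replicate 1. Both subunits enter the microtubule in equal number, but the sums are of mRNA. The ratio depends on the pseudogenes. With the 6 Tuba1-like pseudogenes counted as alpha it was 1.26 in replicate 2 and 1.65 in replicate 1. Their TPM is scaled to their own lengths. Gm17383 had 1041 bases and Tuba1b 1742 bases, so the same count gives more TPM in Gm17383. The ratio with pseudogene reads scaled to the length of a parent gene was not computed. With and without the pseudogene TPM, beta stood above alpha in both libraries.

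The remaining tubulin genes added little. Of 10 further tubulin genes, 1 reached 1 TPM in both libraries, Tube1, the gene of a centriolar tubulin, at 2.10 TPM in replicate 2, against 2.22 TPM in replicate 1. Tubb2b had 1.28 TPM and 0.84 TPM, and Tubb3, the classic neuronal isotype, 0.61 and 0.69 TPM. The centriolar gene Tubd1 had 0.26 and 0.37 TPM, Tubb4a 0.01 and 0.02 TPM, Tuba8 0.02 and 0.01 TPM, and Tubal3 0.01 TPM in replicate 2 and none in replicate 1. The testis isotypes Tuba3a and Tuba3b had no counts, as had Tubg2. The alpha and beta genes among them made up 0.121% of all alpha and beta tubulin TPM in replicate 2 and 0.175% in replicate 1. None of 6 neuron markers and none of 4 male germ cell markers reached 1 TPM.

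Transcript models divided the genes further. Tubb2a, Tuba1c and Tubb1 each had a single model, and in Tubb5 the 2649-base coding transcript held 99.8% of TPM in replicate 2 and 99.9% in replicate 1. In Tuba1b a retained-intron model of 526 bases held 9.43% in replicate 2 and 0.06% in replicate 1, from 668 and 2.29 estimated counts. In Tubb4b a non-coding model of 831 bases held 8.88% in replicate 2 and 3.25% in replicate 1. Both short models thus had larger shares in replicate 2, and in Tubg1 the reverse was seen: its 852-base non-coding model held 28.9% in replicate 2 and 44.8% in replicate 1.

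Tuba4a was the gene in which transcript choice mattered most. Its leading transcript, ENSMUST00000188593.1, has 1205 bases in 2 exons, of which GENCODE M21 marks only 228 as coding. It held 74.1% of Tuba4a TPM in replicate 2 and 60.6% in replicate 1. Models with the coding sequence from codon 2 to the stop codon, of 2083 and 2840 bases, held 11.2 and 0.90 TPM in replicate 2, and 7.86 and 1.07 TPM in replicate 1. By these models alone Tuba4a had 12.1 TPM in replicate 2, against 8.93 TPM in replicate 1, and its share of alpha TPM was 2.70% and 4.12%, against 15.6% and 11.2% over all transcripts. The direction of its share between the libraries turned with this choice. Exons of Tuba4a also overlap those of Stk16 on the opposite strand by 1379 bases, and this touches 30.5% of the 2083-base model and 48.6% of the 2840-base model but none of the leading model. Stk16 had 146 TPM in replicate 2, against 218 TPM in replicate 1. Use of strand in counting is not stated. The estimated counts of Tuba4a, 4467 in replicate 2 and 2148 in replicate 1, had a posterior SD of 0. Those of Stk16 were also whole numbers, 4044 in replicate 2 and 7961 in replicate 1. The gene counts thus show no reads divided between these genes. Whether strand was used to part them was not tested.

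**Figure D3:**
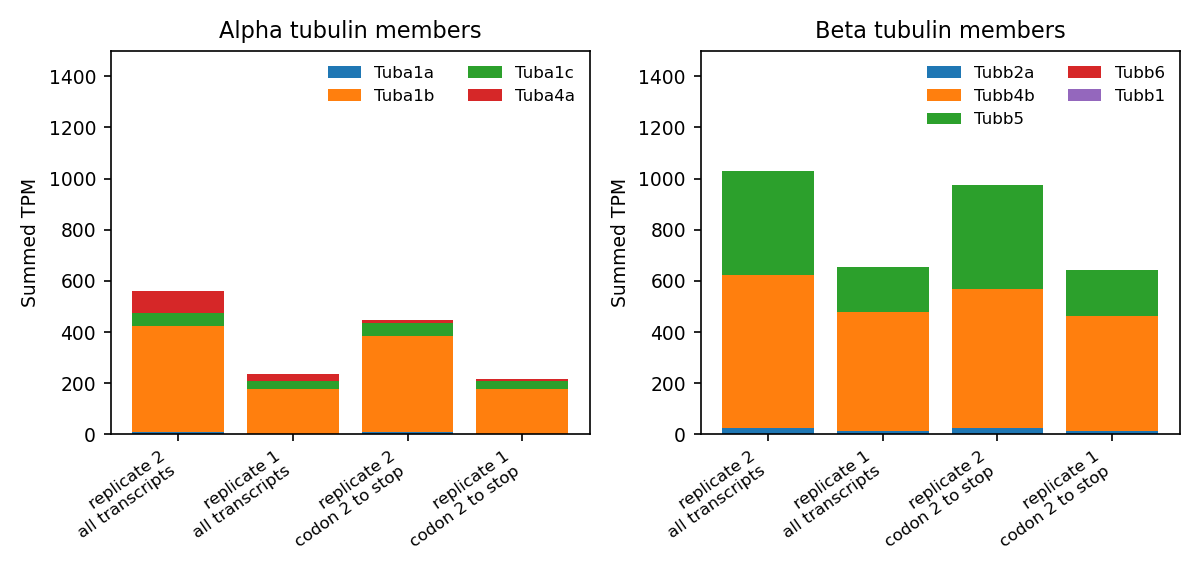
Summed TPM of the alpha genes (left) and the beta genes (right), stacked by gene, over all transcripts and over those that hold the coding sequence from codon 2 to the stop codon, with replicate 2 left of replicate 1. Tuba4a shrinks to 12.1 and 8.93 TPM when its other transcripts are left out, and Tubb5 takes a larger part of beta TPM in replicate 2.

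**Figure D4:**
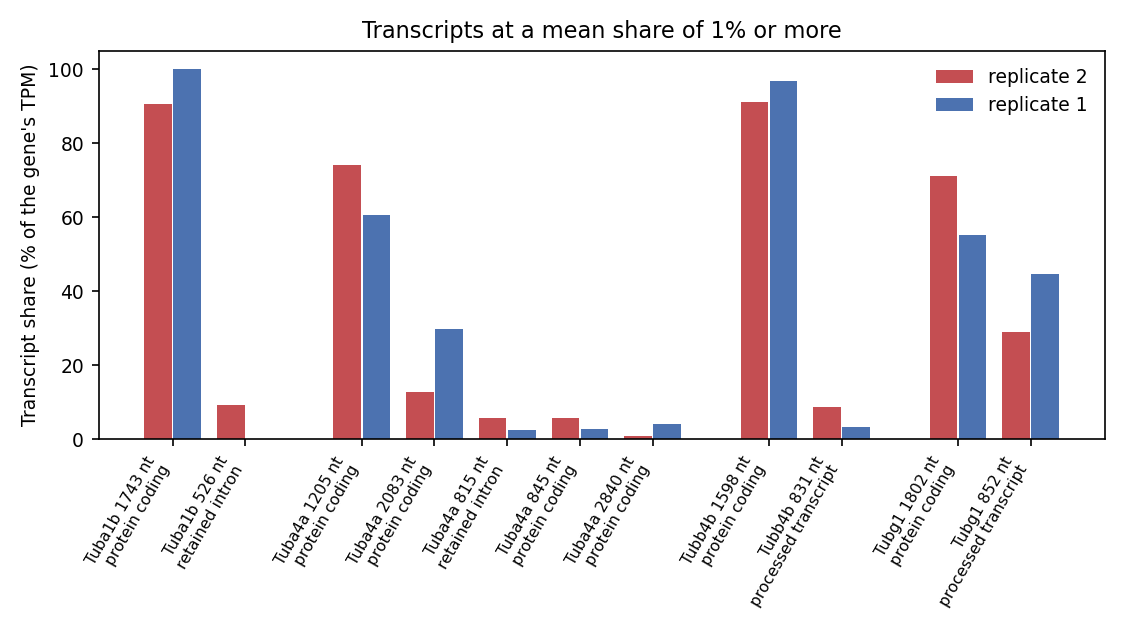
Share of each gene's TPM (percent) in transcripts with a mean share of at least 1%, for the 4 genes with more than 1 such transcript, with replicate 2 in red and replicate 1 in blue. The 852-base model of Tubg1 holds 28.9% in replicate 2 and 44.8% in replicate 1, and the 526-base model of Tuba1b is visible in replicate 2 only, at 9.43%.

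Tubg1, which encodes the gamma tubulin of the nucleating ring (chromosome 11, 101119938 to 101126419, plus strand), was the most even of the detected genes in TPM. It had 112 TPM in replicate 2, against 115 TPM in replicate 1. Its coding transcript alone had 79.5 TPM in replicate 2, against 63.3 TPM in replicate 1. The paralog Tubg2, whose coding sequence is 93.3% identical, had no counts, and the posterior SD of Tubg1 was below 1 count in both libraries. The listed alpha and beta genes summed to 14.2 times Tubg1 in replicate 2 and 7.76 times in replicate 1.

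Of the 10 genes described, the 8 detected were all higher in replicate 2 than in replicate 1 in scaled counts. Counts scaled by TMM were set against each other gene by gene in a two-sided exact binomial test, with Benjamini-Hochberg adjustment over the 10863 genes whose mean count reached 10 and a threshold of 0.05. This test holds counting error alone and compares the 2 libraries, which belong to one condition. These 8 were called higher in replicate 2 and none higher in replicate 1, whereas Tubb1 and Tubb6 had too few counts to enter. Of all tested genes 34.7% were called higher in replicate 2, 34.4% higher in replicate 1 and 69.1% in either direction. Tuba1a had the largest ratio, 5.39 (95% counting interval 4.45 to 6.56), with an adjusted p of 1.35e-84 in the exact binomial test, and 1.19% of tested genes had a higher one. Tuba4a followed at 2.97 (2.82 to 3.13), Tubb2a at 2.47 (2.28 to 2.68), Tubb5 at 2.43 (2.39 to 2.46) and Tuba1b at 2.38 (2.33 to 2.42). These 5 passed a 2-fold ratio, as did 7.46% of tested genes; none of the 8 was 2-fold higher in replicate 1, against 1.68% of tested genes. Tuba1c at 1.66 (1.59 to 1.74), Tubb4b at 1.34 (1.32 to 1.35) and Tubg1 at 1.18 (1.14 to 1.22) stayed below it. By transcripts that hold the coding sequence from codon 2 to the stop codon, the TPM ratio of Tuba4a was 1.35, below 2-fold. Over all its transcripts Tuba4a had 87.1 TPM in replicate 2, against 26.3 TPM in replicate 1, a log2 ratio of 1.73 in TPM. The median log2 ratio was 1.26 over the 8 tubulin genes and -0.01 over all tested genes. Among the other tubulin genes 4 were tested, with a median log2 ratio of -0.03. Of these Tubb2b was called higher in replicate 2 at a log2 ratio of 0.71, and Tube1 at 0.02, Tubb3 at -0.08 and Tubd1 at -0.09 were not called.

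The common coefficient of variation between the libraries, estimated by edgeR over all tested genes, was 0.2995. It comes from the same 2 libraries that are compared, so a test with it can call only genes beyond their common spread. With it in an exact negative binomial test only Tuba1a was called (adjusted p = 0.0218), as were 1.52% of tested genes. With a coefficient of variation of 0.1 the test called 6 tubulin genes, all higher in replicate 2, and no longer Tubb4b or Tubg1. Of all tested genes it called 14.1% higher in replicate 2 and 18.8% in either direction. For Tubg1 the ratio also turned when taken from TPM, with a log2 value of -0.04 against 0.24 from scaled counts. The TPM ratio differs in both scaling and transcript length, and the effective length of Tubg1 was 1380.3 bases in replicate 2 and 1217.4 bases in replicate 1.

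**Figure D5:**
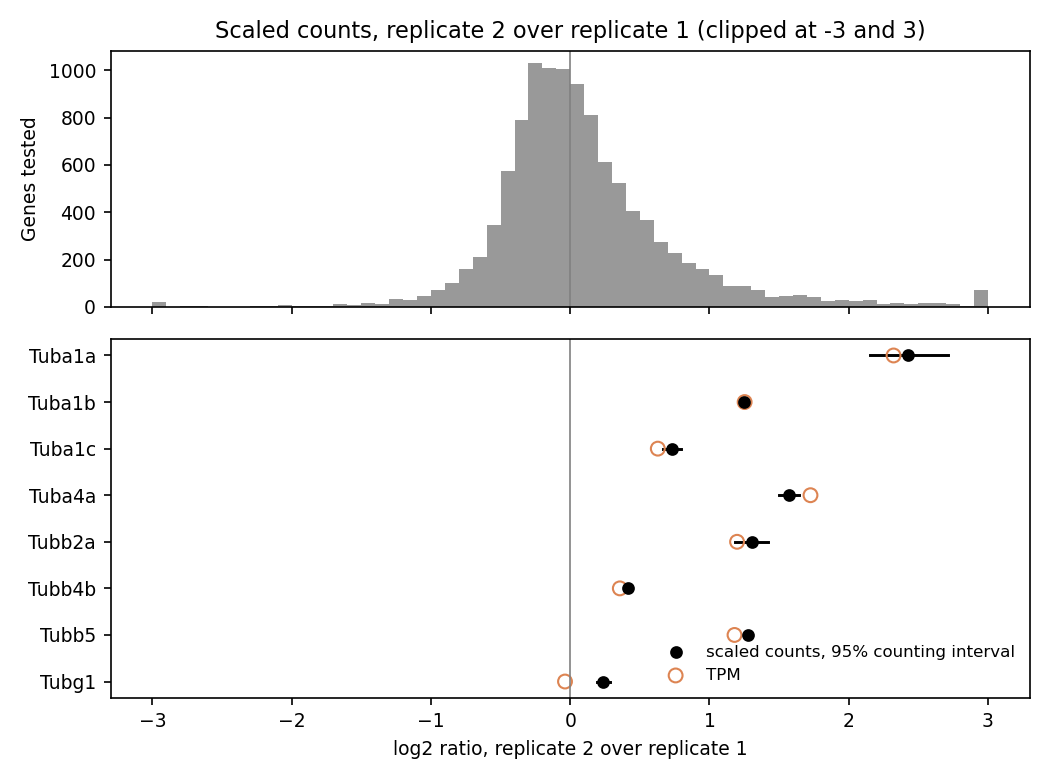
Top, histogram of the log2 ratio of scaled counts, replicate 2 over replicate 1, for the 10863 genes tested. Bottom, the same ratio for the 8 tubulin genes tested (black, with 95% counting intervals) and the ratio of their TPM (open orange circles); black points run from 0.24 for Tubg1 to 2.43 for Tuba1a, and the TPM circle of Tubg1 lies at -0.04.

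Genes that fold, nucleate, modify and bind tubulin were present beside the tubulins, and within each of their lists genes were called in both directions. The shares to set beside each list are those over all tested genes, 34.7% higher in replicate 2 and 34.4% higher in replicate 1. Of 16 folding and assembly factors 15 reached 1 TPM in both libraries, and of the 15 tested 4 were called higher in replicate 2 and 5 higher in replicate 1, with a median log2 ratio of -0.08. The prefoldin subunit genes Pfdn6 and Pfdn1 led the list at 406 ± 14.8 and 220 ± 6.77 TPM (SD, n = 2). The third gene, Stmn1, encodes stathmin, which binds free tubulin dimers, and it had 206 TPM in replicate 2, against 44.8 TPM in replicate 1, a log2 ratio of 2.32. Arl2, a small GTPase of dimer assembly, had 79.5 and 104 TPM, and the lowest members were the cofactor gene Tbce at 1.34 and 2.04 TPM and Stmn3, with no counts. Ttc5, the gene of the factor that reads the nascent tubulin tag, was named after its value was seen. It had 18.3 TPM in replicate 2, against 4.66 TPM in replicate 1, a log2 ratio of 2.08. With the common coefficient of variation Stmn1 was still called (adjusted p = 0.0270 in the exact negative binomial test) and Ttc5 was not (0.0752).

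Of 19 genes of the gamma-tubulin complex, the augmin complex and their anchors 18 reached 1 TPM, and 10 were called higher in replicate 2 and 4 higher in replicate 1, with a median log2 ratio of 0.28. The augmin subunit genes Haus5 and Haus4 stood at 54.5 ± 22.0 and 46.3 ± 15.1 TPM, the ring complex genes Mzt2 and Tubgcp3 at 54.1 ± 35.3 and 41.2 ± 1.56 TPM (SD, n = 2). The lowest were Nedd1 at 2.07 TPM and Haus3 at 0.865 TPM on average. Tubg1 exceeded each of the 19 in mean TPM.

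Enzymes of the tubulin code, many of which modify the tubulin tails, were uneven. Of 22 genes 12 reached 1 TPM, 8 had no counts in either library, and of 13 tested 4 were called higher in replicate 2 and 5 higher in replicate 1. Svbp, the partner of the vasohibins that remove the terminal tyrosine of alpha tubulin, stood at 474 ± 30.1 TPM (SD, n = 2). The vasohibin genes themselves were at the floor, with no counts for Vash1 and 1 count in all for Vash2. Ttl, which encodes the ligase that restores the tyrosine and was named after its value was seen, had no counts either. Ttll12, a member of the ligase family, had 193 ± 43.1 TPM, the deacetylase gene Sirt2 160.1 ± 5.88 TPM and the deglutamylase gene Agbl5 31.4 ± 2.22 TPM (SD, n = 2).

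Microtubule-associated and severing proteins numbered 18, of which 12 reached 1 TPM, and of 13 tested 7 were called higher in replicate 2 and 2 higher in replicate 1. Map1s stood at 130 ± 6.70 TPM, the spindle gene Numa1 at 107 ± 13.9 TPM, the minus-end binder gene Camsap2 at 25.1 ± 1.00 TPM and the midzone gene Prc1 at 20.9 ± 3.49 TPM (SD, n = 2), and Fign and Camsap3 had no counts. Of 15 plus-end and motor genes 14 reached 1 TPM, and of 14 tested 4 were called higher in replicate 2 and 7 higher in replicate 1. The dynactin gene Dctn1 at 308 ± 6.43 TPM and the dynein heavy chain gene Dync1h1 at 254 ± 5.95 TPM led, followed by Kif2a at 38.6 ± 16.1 TPM (SD, n = 2) and by Clasp1, with 33.1 TPM in replicate 2, against 24.6 TPM in replicate 1. Kif18a had 1.20 TPM on average, and Mapre3 had no counts.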

How the data were processed

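Polyadenylated RNA of 2 libraries of G1E-ER4 cells was quantified on mm10 with GENCODE M4, per the labels and the file headers. The sources used here name no aligner, quantifier or use of strand. The deposited expected counts and posterior mean counts are estimated counts, the posterior SD is in counts, TPM and FPKM are the authors' length-scaled levels, and the isoform share is the authors' percent of a gene's TPM. Over Ensembl genes the estimated counts summed to 51923116 for replicate 2, against 68901065 for replicate 1.

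Gene names, coordinates, transcript types, coding sequences and 31-mers (same strand) came from GENCODE M21 (GRCm38), which named 42462 genes. Its transcript models can differ from M4. Levels are means and SDs over both libraries. Expected counts were rounded, scaled by TMM in edgeR 4.0.16 (R 4.3.3), and compared gene by gene with the two-sided exact binomial test of scipy 1.17.1, with Benjamini-Hochberg adjustment at 0.05. The exact negative binomial test of edgeR took a fixed coefficient of variation. Ratio intervals are 95% Clopper-Pearson, and all intervals and floors hold counting error alone, because PCR reads are not independent molecules. Named genes were all members and other tubulins, the 4 highest and 2 lowest of each list of folding, nucleating, modifying, binding and motor genes, and single marker genes beside a result. Ttc5 and Ttl were added after their values were seen. Members and lists were chosen with earlier results of these data known. Alternatives were TPM minimums, FPKM, CPM, posterior means, DESeq2 1.42.0 size factors, library totals, count minimums, added variation and leaving out a library. TPM ratios, transcripts coding from codon 2 to the stop codon and added pseudogenes were chosen after seeing the data. Some sequences and 1 marker gene are not reported here.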

Additional observations from a re-analysis of the deposited data

How the results depend on the processing

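Leaving out a library moved the summed alpha level between 234 and 560 TPM, the summed beta level between 656 and 1028 TPM and their ratio between 1.84 and 2.80, and 8 genes stayed at 1 TPM or more. On average the ratio was 2.32, and 1.46 with the Tuba1-like pseudogenes counted as alpha at their own lengths. It was 2.57 with only transcripts that hold the coding sequence from codon 2 to the stop codon. A TPM minimum of 5 left 7 genes. The count of 8 genes called, all higher in replicate 2, held with DESeq2 size factors, library totals, both other count minimums and posterior mean counts; library totals shifted all log2 ratios by -0.11. It was 6 with a coefficient of variation of 0.1 and 1 with the common one. Tubg1 turned to a log2 ratio of -0.0373 from TPM, which changes both length and scaling; the cause was not tested. No paired analysis was possible because the design has 1 group. In TPM, counting error is far below the spread between the libraries except for Tubg1, Tubb1 and Tubb6. In scaled counts the ratio of Tubg1 was 1.18, with a counting interval of 1.14 to 1.22.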
